A study of Homo sapiens with 9 samples.

Results

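The genes examined are 10 components and regulators of the actomyosin cytoskeleton: the myosins MYH9, MYH10 and MYO10, the myosin light chain MYL9, the tropomyosins TPM1 and TPM2, the calponins CNN2 and CNN3, palmdelphin (PALMD) and the LIM-domain protein LIMA1. The genes were chosen with earlier results of these data known. All probe sets carrying one of these symbols in the array's annotation were taken, without regard to their values. This gave 29 of the 54675 probe sets on the array, and 27 of them were kept after a filter on low values, which required a value at or above an array's 40th percentile on 2 or more of the arrays. One probe set of PALMD (232187_at) and one of TPM2 (229911_at) fell short of it, so all 10 genes were measured, 8 of them by more than 1 kept probe set.

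RNA of PC3 cells, an established human prostate cancer line derived from a bone metastasis, was hybridized to 9 Affymetrix U133 Plus 2.0 arrays after 48 h. Untreated PC3 cells (2 arrays) grew alone. In the other 3 groups PC3 cells shared wells with primary mouse calvarial osteoblasts (OB) held apart on culture inserts: osteoblasts of Sost knockout mice (OB SostKO, 2 arrays), wild-type osteoblasts with recombinant human DKK1 (OB WT + rhDKK1, 2 arrays) and wild-type osteoblasts with recombinant human SOST (OB WT + rhSOST, 3 arrays), each protein at 100 ng/ml. SOST (sclerostin) and DKK1 are secreted Wnt antagonists, and the question was how PC3 cells respond to osteoblasts that differ in them. PC3 cells with wild-type osteoblasts alone were not analysed here, so the co-culture and the added protein or knockout cannot be told apart in a comparison with untreated PC3 cells. The arrays of a group are labelled as biological replicates, and the p-values measure the spread between them only.

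Nonmuscle myosin II, built from heavy chains such as MYH9 or MYH10 and light chains such as MYL9, pulls on actin filaments and gives a cell its contractile force. Tropomyosins and calponins lie along the filament and set which myosins reach it, LIMA1 (EPLIN) cross-links filaments and slows their turnover, and MYO10 carries cargo to the tips of filopodia. In migrating and invading tumor cells these proteins work in protrusions, stress fibers and cell junctions.

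The array reads these genes with short probes, and a suffix says what a probe set can see: _at marks a set unique to its target, _a_at a set for several transcripts of one gene, _s_at a set shared by several transcripts and _x_at a set that may also hybridize to other sequences. Values are RMA values on the log2 scale, and a difference of 1 is a 2-fold change. Probe sets differ in how strongly they bind, so a level is not a measure of how much of one transcript there is against another. The brightest kept probe set of a gene serves as its reference, and where probe sets of one gene are compared it is the change of their difference from array to array that is tested.

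Of the RefSeq promoters given for the GRCh38.p14 assembly, 12 belonged to 9 of the 10 genes and MYL9 was without an entry. Many contractile genes are known targets of serum response factor, which binds the CArG box, so the 250 bases before each start were searched for this motif (the 10 bases CC, 6 of A or T, then GG, a pattern that reads alike on both strands). A match was found in 1 of the 12 member promoters, that of CNN2, and in 407 of all 35116 promoters (1.16%). The CNN2 stretch, chr19:1026494-1026553 on the plus strand, is shown because it is the only one among the members. Capitals mark the match, which ends 79 bases before the start.
CNN2: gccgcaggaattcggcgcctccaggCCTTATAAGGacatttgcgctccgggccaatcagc
The match is a description of these letters, and the binding of a factor was not measured.

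The epithelial keratins and EPCAM, which PC3 cells express, had a list mean between 12.71 and 12.84 on every array. Of the markers of mouse osteoblasts, muscle, and blood and endothelium, 5 of 9, 7 of 11 and 2 of 6 were measured, and 0 passed in any of the 3 comparisons. The list means lay at 5.54 to 5.74, 5.60 to 5.86 and 4.76 to 4.93. They also include genes whose brightest probe set was not kept. Some markers read higher in untreated PC3 cells: RUNX2 averaged 8.89, COL1A1 9.03 and SMTN 9.47. COL1A1 averaged 9.47 with OB WT + rhSOST (adjusted p = 0.179 in limma). Array controls moved with the groups: the poly-A spike controls averaged 11.32 in the untreated arrays and 6.65 in the co-culture arrays, the hybridization controls 11.01 and 10.44, and the 3′ minus 5′ difference of ACTB 0.69 and 1.38 (each exact permutation p = 0.0278, the smallest possible). The 3′ minus 5′ difference of GAPDH was 0.42 on the third rhSOST array and 0.12 to 0.24 on the others. That of ACTB was 1.32 on the third rhSOST array, 2.06 on the first and 0.99 to 1.44 on the other co-culture arrays. The part of these differences in the changes of the 10 genes was not tested. For several members the third rhSOST array lay with the untreated arrays. It is named beside those results, with the values without it for comparisons with untreated PC3 cells.

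Few of the 27 kept probe sets passed an adjusted p under 0.05 in limma, and none of those that passed changed 2-fold. Against untreated PC3 cells, OB SostKO raised 1 and lowered 2 of the 27, OB WT + rhDKK1 raised 2 and lowered 0, and OB WT + rhSOST raised 2 and lowered 3. Over all 33970 probe sets tested, the shares higher and lower were 0.901% and 0.718% with OB SostKO, 1.03% and 0.721% with OB WT + rhDKK1, and 2.66% and 1.32% with OB WT + rhSOST. The genes involved were MYH10 and PALMD among those raised, and TPM1, LIMA1 and MYO10 among those lowered. An unadjusted p under 0.05 was reached by 12, 11 and 9 of the 27 probe sets (44.4%, 40.7% and 33.3%), against 18.9%, 19% and 20.9% of all probe sets tested. In the same order, the median log2 fold change of the 27 was -0.09, -0.077 and -0.017, and that of all probe sets tested was -0.001, -0.003 and 0.01. The members were chosen with earlier results of these data known, and several are probe sets of the same gene. These shares and medians therefore do not test them as a set. All 3 comparisons share the untreated arrays, so an error in those 2 arrays enters each of them.

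**Figure D1:**
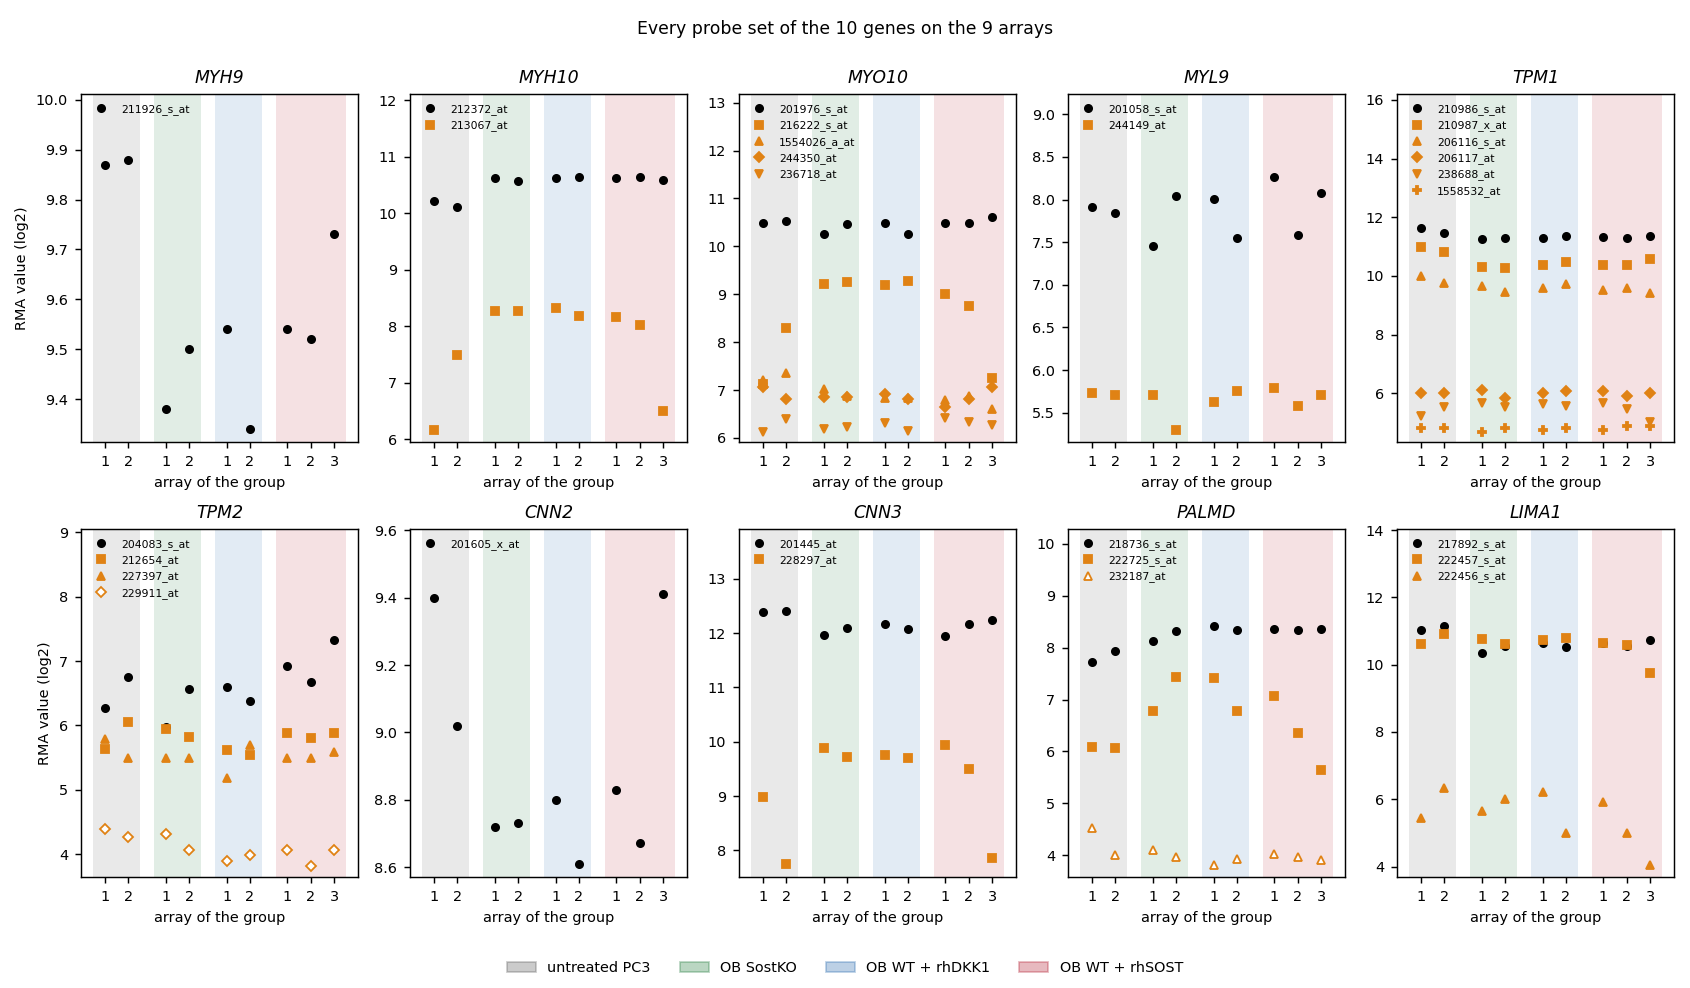
RMA value (log2, vertical axis, scaled per gene) of all 29 probe sets of the 10 genes on each of the 9 arrays, with shading for the group, black for the brightest kept probe set of a gene, orange for its others and open symbols for the 2 that were not kept. MYH10 212372_at lies above both untreated arrays on all 7 co-culture arrays, while MYH10 213067_at, MYO10 216222_s_at and CNN3 228297_at drop on the third rhSOST array to 6.50, 7.26 and 7.86.

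Of the 2 nonmuscle myosin II heavy chains among the members, MYH10 rose in all 3 co-cultures, and MYH9 had lower values that did not pass the test. MYH10 (nonmuscle myosin IIB) 212372_at read 10.21 and 10.12 in untreated PC3 cells, 10.62 and 10.58 with OB SostKO, 10.62 and 10.65 with OB WT + rhDKK1, and 10.63, 10.65 and 10.59 with OB WT + rhSOST. Every co-culture array lay above both untreated arrays, and the 7 co-culture arrays lay within 0.07 of each other. The rise was 0.44 (SE 0.07, adjusted p = 0.037), 0.47 (SE 0.07, adjusted p = 0.0267) and 0.46 (SE 0.07, adjusted p = 0.0151) on the log2 scale for OB SostKO and then for the rhDKK1 and rhSOST co-cultures, or 1.35-, 1.38- and 1.37-fold. In order of level the untreated group was lowest, and the co-culture groups followed with no difference beyond their spread. The direct difference between OB SostKO and OB WT + rhSOST was -0.02 with a 95% interval from -0.18 to 0.13. The rise of MYH10 stayed positive with any 1 of the 9 arrays left out, but the call held in 1, 3 and 6 of those 9 fits for the respective co-cultures.

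MYH9 (nonmuscle myosin IIA), read by 211926_s_at alone, was 9.87 and 9.88 in untreated PC3 cells, 9.38 and 9.50 with OB SostKO, 9.54 and 9.34 with OB WT + rhDKK1, and 9.54, 9.52 and 9.73 with OB WT + rhSOST. All 7 co-culture arrays were below both untreated arrays. The log2 differences of -0.43 (SE 0.11), -0.43 (SE 0.11) and -0.28 (SE 0.10) had adjusted p = 0.0909, 0.0866 and 0.159 and did not pass.

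MYL9, the regulatory light chain that is phosphorylated to switch on contraction, varied more within groups than between them. Its brighter probe set 201058_s_at read 7.91 and 7.84 in untreated PC3 cells, 7.45 and 8.04 with OB SostKO, 8.01 and 7.55 with OB WT + rhDKK1, and 8.27, 7.59 and 8.08 with OB WT + rhSOST. Each co-culture group had arrays on both sides of the untreated values. The log2 fold changes of the 2 MYL9 probe sets lay between -0.22 and 0.10, with adjusted p from 0.435 upward.

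MYO10, the filopodial motor, was read by 5 probe sets that did not move alike. The brightest, 201976_s_at, read 10.49 and 10.52 in untreated PC3 cells, 10.25 and 10.47 with OB SostKO, 10.48 and 10.26 with OB WT + rhDKK1, and 10.49, 10.48 and 10.61 with OB WT + rhSOST. These groups overlapped, and the log2 fold changes were -0.15, -0.14 and 0.02 (SE 0.11, 0.11 and 0.10). Probe set 1554026_a_at was 7.21 and 7.35 in untreated PC3 cells, 7.02 and 6.87 with OB SostKO, 6.84 and 6.83 with OB WT + rhDKK1, and 6.79, 6.87 and 6.60 with OB WT + rhSOST. All co-culture arrays lay below the untreated ones. It fell by 0.53 on the log2 scale with OB WT + rhSOST (SE 0.10, adjusted p = 0.0316), and its differences of -0.34 and -0.44 with OB SostKO and OB WT + rhDKK1 did not pass (adjusted p = 0.162 and 0.0865). The fall with OB WT + rhSOST was called in 3 of the 9 fits with 1 array left out.

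The third MYO10 probe set, 216222_s_at, had the largest positive difference among the members. It read 7.12 and 8.29 in untreated PC3 cells, 9.22 and 9.25 with OB SostKO, 9.19 and 9.27 with OB WT + rhDKK1, and 9.01, 8.75 and 7.26 with OB WT + rhSOST. The other 6 co-culture arrays were higher than both untreated arrays, and the third rhSOST array lay between the untreated values. The log2 fold changes of 1.53, 1.53 and 0.63 (SE 0.56, 0.56 and 0.51) had adjusted p = 0.198, 0.198 and 0.531. Without the third rhSOST array they were 1.53, 1.53 and 1.17 (adjusted p = 0.0454, 0.0464 and 0.0828), so the first 2 passed. That was the only one of the 9 fits with 1 array left out in which they did. The size of the difference depended on the untreated arrays, which differ by more than 1 on this scale: it was 0.95, 0.94 and 0.05 without the first and 2.12, 2.11 and 1.22 without the second, with adjusted p from 0.175 to 0.991. The remaining MYO10 probe sets, 236718_at and 244350_at, stayed within 0.10 of the untreated mean in every group mean.

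**Figure D2:**
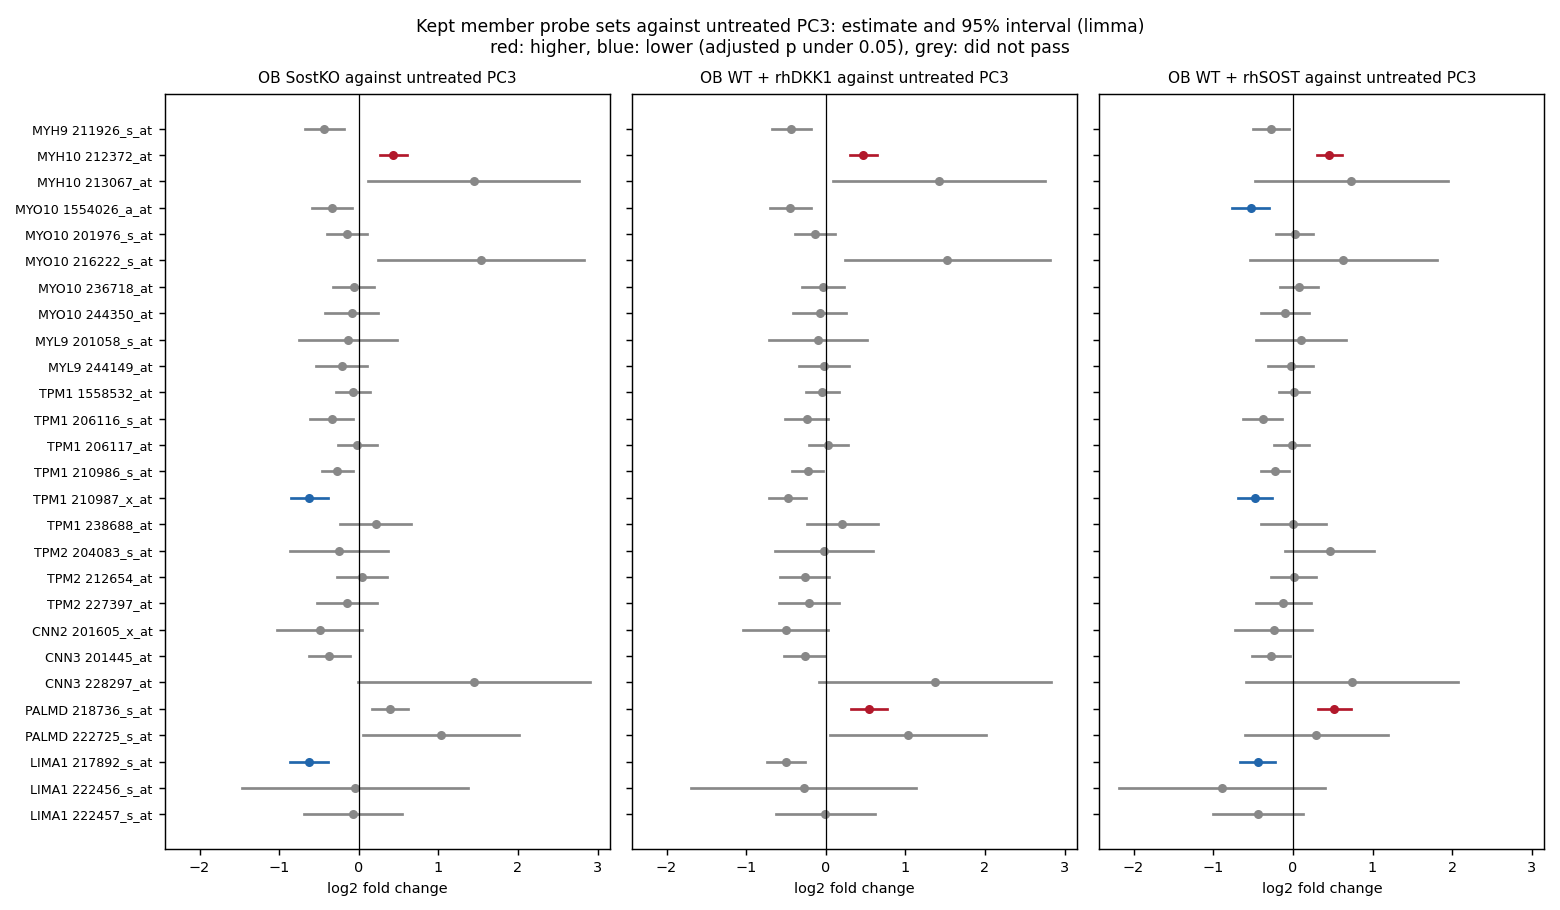
Log2 fold change against untreated PC3 cells (horizontal axis) of the 27 kept probe sets, 1 panel per co-culture, with points for the limma estimates, bars for 95% intervals, red for higher and blue for lower at an adjusted p under 0.05. MYH10 212372_at is called in all 3 panels at 0.44, 0.47 and 0.46, whereas MYO10 216222_s_at at 1.53, 1.53 and 0.63 has wide intervals and is not called.

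TPM1, a tropomyosin that stabilizes actin filaments, had lower values in its 3 bright probe sets, of which 1 passed. Probe set 210987_x_at read 11.00 and 10.81 in untreated PC3 cells, 10.30 and 10.28 with OB SostKO, 10.38 and 10.48 with OB WT + rhDKK1, and 10.38, 10.37 and 10.56 with OB WT + rhSOST. The co-culture arrays were all below the untreated ones. It fell by 0.62 (SE 0.10, adjusted p = 0.0355) with OB SostKO and by 0.47 (SE 0.09, adjusted p = 0.0363) with OB WT + rhSOST, and the difference of -0.48 with OB WT + rhDKK1 had adjusted p = 0.062. Either call held in 1 of the 9 fits with 1 array left out, the fit without the third rhSOST array. The _x_at suffix means that other tropomyosin transcripts may contribute to this probe set.

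The brightest TPM1 probe set, 210986_s_at, was 11.63 and 11.47 in untreated PC3 cells, 11.26 and 11.30 with OB SostKO, 11.28 and 11.37 with OB WT + rhDKK1, and 11.33, 11.28 and 11.37 with OB WT + rhSOST. Again no co-culture array reached an untreated one, but the differences of -0.27, -0.23 and -0.22 (SE 0.08) did not pass (adjusted p = 0.148, 0.204 and 0.152). For 206116_s_at the differences were -0.34, -0.24 and -0.38 with adjusted p = 0.181, 0.316 and 0.0954. The 3 dimmer TPM1 probe sets, 206117_at, 1558532_at and 238688_at, had values between 4.67 and 6.12 on all arrays, and their log2 fold changes lay between -0.07 and 0.21.

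TPM2, the tropomyosin best known from muscle, was not called by any of its 3 kept probe sets. Probe set 204083_s_at read 6.27 and 6.75 in untreated PC3 cells, 5.97 and 6.56 with OB SostKO, 6.60 and 6.38 with OB WT + rhDKK1, and 6.92, 6.67 and 7.33 with OB WT + rhSOST. The highest value was that of the third rhSOST array, and the groups overlapped. Against untreated PC3 cells the differences were -0.25, -0.02 and 0.46 (SE 0.27, 0.27 and 0.24), and the last was 0.28 without the third rhSOST array. Probe sets 212654_at and 227397_at lay between 5.18 and 6.06 on all arrays, and 229911_at, below the filter, between 3.82 and 4.39.

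The calponins, actin-binding proteins that stabilize stress fibers, had lower values in their brightest probe sets, which did not pass the test. CNN2 has a single probe set, 201605_x_at, which read 9.40 and 9.02 in untreated PC3 cells, 8.72 and 8.73 with OB SostKO, 8.80 and 8.61 with OB WT + rhDKK1, and 8.83, 8.67 and 9.41 with OB WT + rhSOST. The third rhSOST array matched the higher untreated array and the other 6 co-culture arrays lay below both. The log2 differences were -0.49, -0.51 and -0.24 (SE 0.23, 0.23 and 0.21), with adjusted p = 0.299, 0.285 and 0.567. Without the third rhSOST array they were -0.49, -0.51 and -0.46, with adjusted p = 0.0941, 0.0877 and 0.102.

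CNN3 201445_at was 12.38 and 12.40 in untreated PC3 cells, 11.96 and 12.09 with OB SostKO, 12.17 and 12.08 with OB WT + rhDKK1, and 11.94, 12.16 and 12.24 with OB WT + rhSOST. No co-culture array reached the untreated values, and the differences of -0.37, -0.27 and -0.28 (SE 0.11, 0.11 and 0.10) had adjusted p = 0.14, 0.251 and 0.174. Its other probe set, 228297_at, had higher values on most co-culture arrays: 8.98 and 7.74 in untreated PC3 cells, 9.88 and 9.72 with OB SostKO, 9.76 and 9.70 with OB WT + rhDKK1, and 9.93, 9.50 and 7.86 with OB WT + rhSOST. The 2 untreated arrays and the third rhSOST array were the lowest. The differences of 1.45, 1.37 and 0.74 (SE 0.63, 0.63 and 0.58) did not pass (adjusted p = 0.268, 0.288 and 0.517), and without the third rhSOST array they were 1.45, 1.37 and 1.36 (adjusted p = 0.0671, 0.076 and 0.0739). They were 2.07, 1.99 and 1.36 without the first untreated array and 0.83, 0.75 and 0.12 without the second, and did not pass in either case.

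PALMD, a cytosolic relative of the membrane-bound paralemmins, was higher in all 3 co-cultures by its brightest probe set and passed the test in 2. Probe set 218736_s_at read 7.73 and 7.93 in untreated PC3 cells, 8.13 and 8.32 with OB SostKO, 8.41 and 8.34 with OB WT + rhDKK1, and 8.35, 8.34 and 8.35 with OB WT + rhSOST. All 7 co-culture arrays were above both untreated arrays, the third rhSOST array included. PALMD rose by 0.55 (SE 0.10, adjusted p = 0.0403) with OB WT + rhDKK1 and by 0.52 (SE 0.09, adjusted p = 0.024) with OB WT + rhSOST, or 1.46- and 1.43-fold, and the difference of 0.40 (SE 0.10) with OB SostKO did not pass (adjusted p = 0.0906). OB SostKO and OB WT + rhSOST differed by -0.12, with a 95% interval from -0.33 to 0.08. The calls held in 3 and 4 of the 9 fits with 1 array left out.

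The other kept PALMD probe set, 222725_s_at, was 6.08 and 6.06 in untreated PC3 cells, 6.78 and 7.43 with OB SostKO, 7.42 and 6.78 with OB WT + rhDKK1, and 7.07, 6.36 and 5.65 with OB WT + rhSOST. Arrays of one group differed by up to 1.42, and the third rhSOST array was the lowest of all. The differences of 1.04, 1.03 and 0.29 (SE 0.43, 0.43 and 0.39) had adjusted p = 0.242, 0.247 and 0.729. Without the third rhSOST array they were 1.04, 1.03 and 0.65 (adjusted p = 0.108, 0.109 and 0.269), and without the first rhSOST array the last was -0.06. Probe set 232187_at, below the filter, read between 3.81 and 4.53.

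LIMA1, a cross-linker of actin filaments at cell junctions, was lower in all 3 co-cultures by its brightest probe set and passed the test in 2. Probe set 217892_s_at read 11.04 and 11.14 in untreated PC3 cells, 10.35 and 10.57 with OB SostKO, 10.64 and 10.54 with OB WT + rhDKK1, and 10.64, 10.56 and 10.73 with OB WT + rhSOST. No co-culture array came within 0.3 of an untreated one. LIMA1 fell by 0.63 (SE 0.10, adjusted p = 0.0357) with OB SostKO and by 0.44 (SE 0.10, adjusted p = 0.0453) with OB WT + rhSOST, or 1.54- and 1.36-fold, and the difference of -0.50 with OB WT + rhDKK1 had adjusted p = 0.0592. OB SostKO and OB WT + rhSOST differed by -0.18, with a 95% interval from -0.40 to 0.04. Between OB WT + rhDKK1 and OB WT + rhSOST the difference was -0.06, with a 95% interval from -0.28 to 0.16. The calls held in 1 and 3 of the 9 fits with 1 array left out.

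LIMA1 222457_s_at did not follow it: it read 10.61 and 10.92 in untreated PC3 cells, 10.75 and 10.63 with OB SostKO, 10.74 and 10.78 with OB WT + rhDKK1, and 10.64, 10.58 and 9.76 with OB WT + rhSOST. Except for the third rhSOST array, the co-culture arrays lay between or just below the untreated values, and the differences were -0.07, -0.01 and -0.43 (SE 0.27, 0.27 and 0.24). Without that array the last was -0.15. Probe set 222456_s_at read 5.44 and 6.32 in untreated PC3 cells, 5.65 and 6.02 with OB SostKO, 6.21 and 4.99 with OB WT + rhDKK1, and 5.93, 5.01 and 4.04 with OB WT + rhSOST. Its groups overlapped and its arrays spread widely within each group. The difference of -0.89 with OB WT + rhSOST (SE 0.56, adjusted p = 0.42) was the most negative of all 27 probe sets in the 3 comparisons and did not pass, and it was -0.41 without the third rhSOST array. With OB SostKO and OB WT + rhDKK1 the differences were -0.04 and -0.28 (SE 0.61).

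Where a gene has several kept probe sets, the difference between each and the brightest of its gene was taken within every array, which gave 17 pairs. The mean difference in the 2 untreated arrays was set against that in the 7 co-culture arrays by a two-sided exact permutation test over arrays, whose smallest possible p is 0.0278. This p was reached by 2 pairs, both of TPM1, and after adjustment over the 17 pairs none passed (smallest adjusted p = 0.157). TPM1 210987_x_at lay 0.62 and 0.66 below 210986_s_at on the untreated arrays and 0.81 to 1.02 below it in the co-cultures, and the mean difference between them was 0.28 larger there on the log2 scale. The other pair was 1558532_at, whose difference from 210986_s_at was 0.21 higher in the co-cultures. That probe set read 4.67 to 4.89 on all arrays, near the arrays' 40th percentile of 4.82 to 4.92. Its own log2 fold changes were -0.07, -0.04 and 0.01, so the shift came mostly from 210986_s_at, at -0.27, -0.23 and -0.22.

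The larger shifts between probe sets of one gene did not separate the groups. The difference between MYO10 216222_s_at and 201976_s_at was -3.37 and -2.23 on the untreated arrays, between -1.73 and -0.99 on 6 co-culture arrays and -3.35 on the third rhSOST array (mean change 1.22, exact p = 0.0556). That of CNN3 228297_at from 201445_at was -3.40 and -4.67 on the untreated arrays, between -2.66 and -2.01 on the 6 and -4.38 on the third rhSOST array (mean change 1.42, exact p = 0.0556). That of MYH10 213067_at from 212372_at was -4.05 and -2.63 on the untreated arrays, between -2.63 and -2.29 on the 6 and -4.10 on the third rhSOST array (mean change 0.68, exact p = 0.111). In each of these 3 genes the third rhSOST array sat with the untreated arrays. Without it, 7 of the 17 pairs reached the smallest exact p those arrays allow, 0.0357, with adjusted p = 0.0867: those of MYH10, CNN3, MYO10 216222_s_at and LIMA1 222457_s_at and 3 of TPM1. This array was picked out because it lay with the untreated arrays in such pairs. The larger count partly follows from that choice and is no further support for a separation.

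**Figure D3:**
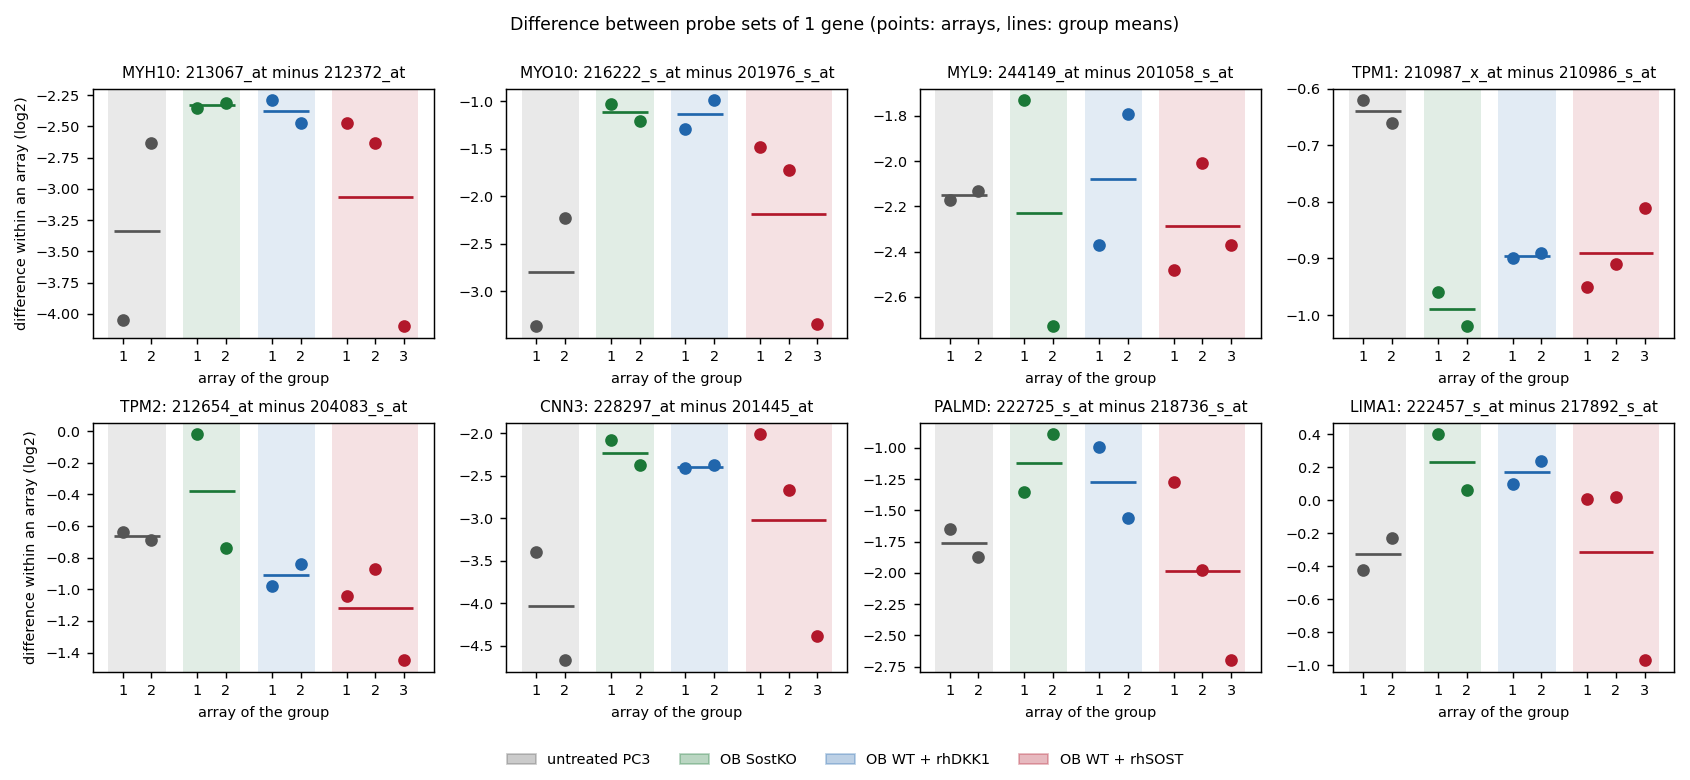
Difference (log2) between a probe set and the brightest kept probe set of its gene within each array, for 1 pair of each of the 8 genes with several, the pair with the smallest exact p, with points for the 9 arrays, coloured by group, and lines for group means. In the MYH10, MYO10 and CNN3 panels the third rhSOST array, at -4.10, -3.35 and -4.38, lies with the untreated arrays, and in the TPM1 panel all 7 co-culture arrays lie below both untreated arrays.

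MYH10 213067_at itself read 6.17 and 7.50 in untreated PC3 cells, 8.28 and 8.27 with OB SostKO, 8.33 and 8.18 with OB WT + rhDKK1, and 8.17, 8.03 and 6.50 with OB WT + rhSOST. Both MYH10 probe sets were thus higher than in untreated PC3 cells on 6 co-culture arrays, and on the third rhSOST array only 212372_at was. The differences of 1.44, 1.42 and 0.73 (SE 0.58, 0.58 and 0.53) did not pass (adjusted p = 0.231, 0.237 and 0.48). Without the third rhSOST array they were 1.44, 1.42 and 1.26 (adjusted p = 0.07, 0.0719 and 0.0912). They were 0.78, 0.76 and 0.07 without the first untreated array and 2.11, 2.09 and 1.40 without the second. With an unadjusted p under 0.05 and a fold of 2 as the criterion, MYH10 213067_at, MYO10 216222_s_at and PALMD 222725_s_at were higher with OB SostKO and with OB WT + rhDKK1 (3 of 27 each, against 0.636% and 0.53% of all probe sets), and 0 were with OB WT + rhSOST (0.236% of all). Because the members were chosen with earlier results of these data known, these shares do not test them as a set.

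Over all 9 arrays, the probe sets most like MYO10 216222_s_at were those of ANKRD17 (225852_at, Pearson r = 0.992), MYH10 (213067_at, r = 0.991) and the deubiquitinase USP13 (205356_at, r = 0.99). Each was low on the untreated arrays and on the third rhSOST array, as ANKRD17 with 10.22, 10.81 and 10.25 against 11.12 to 11.49 elsewhere. Most like LIMA1 217892_s_at were SON (213538_at, r = 0.986), the angiogenic factor VEGFA (210512_s_at, r = 0.986) and the junction protein VEZT (223675_s_at, r = 0.983). These correlations describe 9 arrays in 4 groups, and the probe sets were picked from all those kept.

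Between the co-culture groups no member passed the test. Of the 27 probe sets, 0 passed an adjusted p under 0.05 in limma between OB SostKO and OB WT + rhSOST, between OB WT + rhDKK1 and OB WT + rhSOST, or between OB SostKO and OB WT + rhDKK1, as did 0% of all probe sets tested in each comparison. The smallest adjusted p was 0.843, 1 and 1. An unadjusted p under 0.05 was reached by 1, 0 and 0 of the 27, against 3.43%, 2.33% and 0.854% of all probe sets. The 1 was TPM2 204083_s_at, which was 0.71 lower with OB SostKO than with OB WT + rhSOST on the log2 scale (SE 0.24, 95% interval from -1.27 to -0.15 in limma). The members' differences ranged from -0.71 to 0.90, from -0.48 to 0.89 and from -0.23 to 0.31 in the 3 comparisons, and a difference under the spread of 2 or 3 arrays was not detectable. The 0.90 and 0.89 were those of MYO10 216222_s_at, which read 7.26 on the third rhSOST array and 9.01 and 8.75 on the other rhSOST arrays. TPM2 204083_s_at read 7.33 on the third and 6.92 and 6.67 on the others. These extremes thus lean on the third rhSOST array, and values without it are not given for the direct comparisons.

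Other genes of the actomyosin system were read at their brightest kept probe set in 6 lists holding 55 genes, of which 46 were measured. With OB SostKO and with OB WT + rhDKK1 0 of the 46 passed in either direction, and with OB WT + rhSOST 0 rose and 1 fell. That gene was TAGLN3 (transgelin 3, a calponin relative), which fell by 0.45 with OB WT + rhSOST (SE 0.10, adjusted p = 0.0488) and differed by -0.38 and -0.48 with the other co-cultures (adjusted p = 0.121 and 0.0718). The medians over the 46 genes were -0.09, -0.07 and 0.02.

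Among myosin II and its regulators, 15 of 15 genes were measured and none passed in any of the 3 comparisons. The heavy chain MYH14, which is in this list, differed by -0.05, -0.11 and 0.07. The largest differences were those of RHOB, a small GTPase, at -1.12, -1.04 and -0.79 (adjusted p = 0.117, 0.132 and 0.167), and of PPP1CB, the catalytic subunit of myosin phosphatase, at 1.06, 0.93 and 0.47 (adjusted p = 0.149, 0.188 and 0.426). For PPP1CB the rhSOST arrays ran from 10.25 to 11.49, the lowest of them below both untreated arrays (10.36 and 10.58). Of the other myosins 10 of 12 were measured, and the one with the smallest p was the vesicle motor MYO5B, at -0.36, -0.39 and -0.25 (adjusted p = 0.0801, 0.0678 and 0.121). The other tropomyosins and thin filament proteins (7 of 10 measured) included TPM4 at -0.18, -0.19 and -0.36. PALM3, a paralemmin and so a relative of PALMD, differed by 0.42, 0.49 and 0.57 without passing (adjusted p = 0.256, 0.191 and 0.0969). Actins and LIM proteins (9 of 12) had medians of -0.09, -0.08 and 0.03, and SRF itself, with both its actin-sensing coactivators measured, differed by -0.25, -0.36 and -0.18 (adjusted p = 0.235, 0.113 and 0.299).

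**Figure D4:**
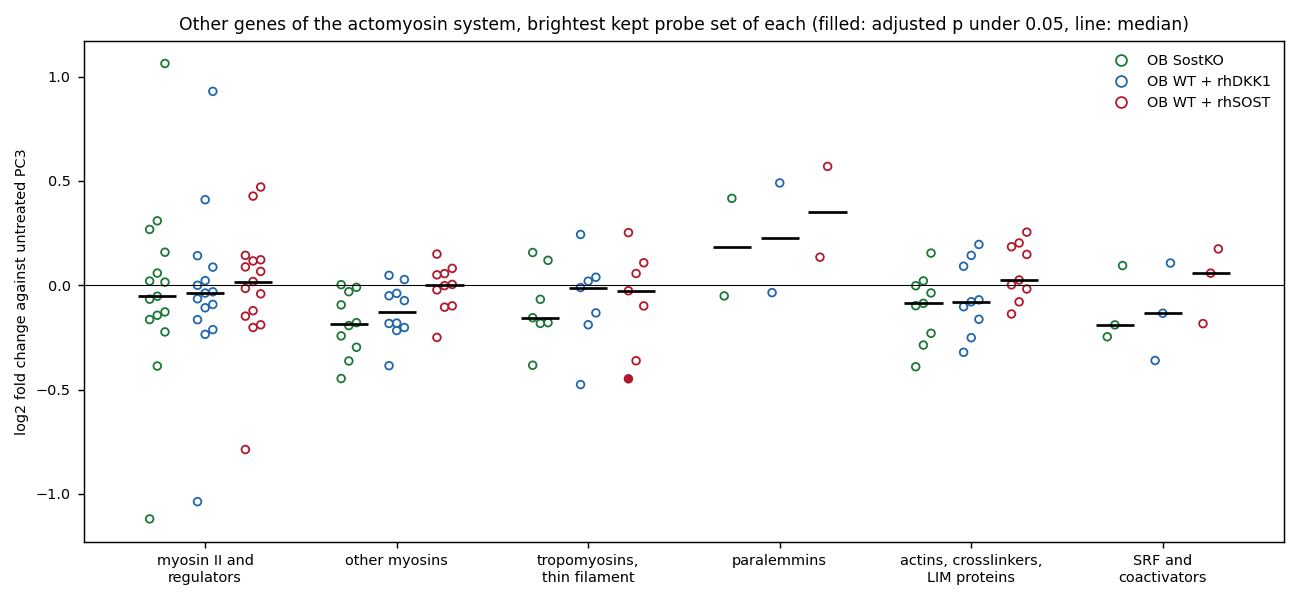
Log2 fold change against untreated PC3 cells (vertical axis) of the 46 measured genes of 6 actomyosin lists, 1 point per gene at its brightest kept probe set, coloured by co-culture, with a line for each list's median and a filled point for an adjusted p under 0.05. The single filled point is TAGLN3 with OB WT + rhSOST at -0.45, and the points farthest from 0 are those of RHOB at -1.12 and PPP1CB at 1.06.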

How the data were processed

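PC3 RNA of 4 groups was measured on 9 arrays. Per the labels and the submitters' processing notes, the authors deposited log2 values made by RMA (background correction, quantile normalization and median polish, which sets all arrays to 1 distribution and can hide a shift common to most genes); its version is not given in the sources used here. Array medians lay between 5.45 and 5.52. Precision is limited by how few arrays each group has.

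Groups came from the labels. Probe sets were named through the platform's annotation, whose symbols for these genes were current. In R 4.3.3 with limma 3.58.1, a mean for each group was fitted with lmFit and eBayes to all 33970 kept probe sets (62 controls left out), with Benjamini-Hochberg adjustment over all of them within a comparison. All groups shared 1 estimate of the spread. Probe sets of one gene were compared by an exact permutation test. Members and lists were chosen with earlier results of these data known. Every probe set of a member was named; array values were given for the brightest of a gene and the one with the largest mean absolute change over the 3 comparisons with untreated PC3 cells, and for others that a result turned on. The fitting was tested on simulated data. Alternatives were other filters, cyclic loess, 1 probe set or the mean per gene, only the 2 groups compared, a replicate block, the tests the methods name, other thresholds and leaving out each array.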

Additional observations from a re-analysis of the deposited data

How the results depend on the processing

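The 10 calls made against untreated PC3 cells kept their direction with any 1 of the 9 arrays left out, but the number of calls depended on the arrays. It ran from 0 to 2 higher and 0 to 2 lower with OB SostKO, from 0 to 3 and 0 to 3 with OB WT + rhDKK1, and from 0 to 2 and 0 to 3 with OB WT + rhSOST. Without the first untreated array 0 probe sets were called and without the second 1 (PALMD 218736_s_at with OB WT + rhSOST, adjusted p = 0.0472), whereas without the third rhSOST array 2 and 2, 3 and 3, and 2 and 3 were higher and lower. Pairs of probe sets with an exact permutation p under 0.05 numbered 0 to 7 with 1 array left out: 7 without the third rhSOST array, 2 or 3 without any other co-culture array, and 0 without either untreated array, where the smallest p the arrays allow is 0.125 and the count says nothing. In those last fits 1 untreated array was left. A pair then does not overlap whenever that array is the highest or lowest, so overlap says nothing there either. The 60th percentile filter gave 1 pair with an exact permutation p under 0.05. Counts of 0 in both directions and all 3 comparisons came from the mean of a gene's probe sets, a fit of only the 2 groups compared, the ANOVA with Tukey comparisons, the paired test and a required 2-fold change. The paired test rested on 2 same-numbered pairs per comparison. An adjusted p under 0.05 is hardly reachable with so few, so its count of 0 says little. The ANOVA took the spread from each probe set alone, which also makes a call harder to reach. With an unadjusted p and 2-fold, 3, 3 and 0 were higher and 0, 0 and 0 lower. Without a filter 0, 1 and 2 were higher. The 60th percentile filter gave 2, cyclic loess 1 and the brightest probe set of a gene 1 lower with OB WT + rhDKK1, and the brightest also gave 1 lower with each of the others. With the replicate block, calls were 0 higher and 1 lower with OB SostKO and 0 in both directions with OB WT + rhDKK1 and OB WT + rhSOST. Deviations of same-numbered arrays from their group means correlated from -0.539 to 0.426. In a group of 2 arrays these deviations mirror each other, so the values cannot settle whether the same replicate number paired the arrays. A crossed pairing of OB SostKO and OB WT + rhDKK1, chosen after seeing the data, gave 0 calls. The direct comparisons gave 0 calls in every alternative. The share of all probe sets called in each alternative is not given here. The members' counts therefore do not show whether calls changed for them alone or for the whole array. The third rhSOST array was picked out because it lay with the untreated arrays. Larger counts without it partly follow from that choice. Some alternatives had fewer arrays, and the cause of the lost calls was not tested.

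Of 81 log2 fold changes, 29 changed sign with 1 array left out, and 0 of these had passed. With OB SostKO they ran for LIMA1 222456_s_at from -0.49 to 0.40, LIMA1 222457_s_at from -0.22 to 0.08, MYL9 201058_s_at from -0.43 to 0.16, MYO10 236718_at from -0.20 to 0.07, MYO10 244350_at from -0.22 to 0.04, TPM1 206117_at from -0.16 to 0.12, TPM2 204083_s_at from -0.54 to 0.05 and TPM2 212654_at from -0.18 to 0.26. With OB WT + rhDKK1 they ran for LIMA1 222456_s_at from -0.89 to 0.33, LIMA1 222457_s_at from -0.16 to 0.15, MYL9 201058_s_at from -0.33 to 0.13, MYL9 244149_at from -0.09 to 0.03, MYO10 236718_at from -0.17 to 0.10, MYO10 244350_at from -0.20 to 0.05, TPM1 1558532_at from -0.09 to 0.01, TPM1 206117_at from -0.01 to 0.07, TPM2 204083_s_at from -0.26 to 0.22 and TPM2 227397_at from -0.47 to 0.04. With OB WT + rhSOST they ran for MYL9 201058_s_at from -0.04 to 0.30, MYL9 244149_at from -0.08 to 0.03, MYO10 201976_s_at from -0.02 to 0.05, MYO10 236718_at from -0.06 to 0.21, MYO10 244350_at from -0.22 to 0.03, PALMD 222725_s_at from -0.06 to 0.65, TPM1 1558532_at from -0.01 to 0.06, TPM1 206117_at from -0.05 to 0.02, TPM1 238688_at from -0.14 to 0.18, TPM2 212654_at from -0.21 to 0.22 and TPM2 227397_at from -0.27 to 0.02. Under cyclic loess TPM1 1558532_at with OB WT + rhDKK1 was 0.0035 and MYO10 201976_s_at with OB WT + rhSOST -0.01, and with the replicate block TPM1 1558532_at was -0.01, MYO10 201976_s_at -0.02 and TPM2 212654_at -0.0048 with OB WT + rhSOST.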
